A study of Mus musculus with 48 samples.

Results

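The genes of cholesterol synthesis, sensing, transport and export were described in liver, spinal cord, cerebellum and midbrain of Tia1 knockout (KO) and wild-type (WT) mice. The list named 36 genes, and each was read by the brightest of its probe sets over all 48 arrays, a probe set being the group of short oligonucleotides that reads 1 transcript on the chip. Of the 36 genes, 30 had a probe set with that symbol alone, against 17075 genes and 45037 probe sets in the whole table. These were 17 enzymes of the pathway, 4 sterol-sensing genes, 3 of intracellular sterol transport, 3 of export, 2 that convert cholesterol and 1 receptor. The other 6 (Acat2, Pmvk, Soat1, Soat2, Abca1 and Nr1h2) had no such probe set in the annotation used here and are only named. The 30 genes had 51 probe sets in all, 14 of them more than 1.

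Cholesterol is built from acetyl-CoA through mevalonate and squalene, first by enzymes that make the isoprenoid units and join them to squalene, then by enzymes that close the ring and trim lanosterol to cholesterol. When membranes of the endoplasmic reticulum hold little sterol, the carrier SCAP brings the transcription factor SREBP2 (gene Srebf2) to the Golgi to be cut, and the freed factor raises the transcription of nearly the whole pathway. When sterol is plentiful, INSIG proteins hold SCAP back. The liver makes cholesterol for export in lipoproteins and disposes of it as bile acids through Cyp7a1, whereas the brain and spinal cord, cut off from plasma lipoproteins, make their own, much of it for myelin, and dispose of it through the hydroxylase Cyp46a1.

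The 48 arrays were 4 tissues from each of 12 mice, 3 KO and 3 WT at 3 months of age and as many at 6 months, which made 16 groups of 3. The KO mice were homozygous for a constitutive deletion by homologous recombination at exon 4 of Tia1, an RNA-binding protein of stress granules. They carried it in every cell on a C57BL6/J background, and a shortened Tia1 mRNA without the protein remains. The KO mice came from matings of homozygous animals and the WT mice were C57BL6/J from a commercial breeder, by the methods, so the genotypes were bred apart, although the series description calls the WT mice littermates. Genotype and breeding line cannot be told apart. All mice were fed freely under a 12/12 h light and dark cycle, with no treatment, and neither the hour of death nor the time since the last meal is given. The labels number the KO mice 122970, 122972 and 122973 and the WT mice 1, 2 and 3 at both ages, and the ages were taken as separate mice. Values by mouse are given below in that order.

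All levels are log2 values, so a difference of 1 is a doubling, and a level is compared only with the same probe set in other samples. A change is KO minus WT on the log2 scale with its standard error (SE), tested by limma on the 12 arrays of the tissue, and a gene is called where the p, adjusted by Benjamini-Hochberg over all 45037 probe sets, is under 0.05. The Tia1 probe set at exon 4 was lower in KO than WT in the nervous tissues (log2 change −1.79 to −2.35, highest adjusted p = 1.38e-06), but in liver, where WT mice read 5.18 to 5.63, it did not pass the test (−0.76, adjusted p = 0.117 at 3 months, and −0.39, adjusted p = 0.426 at 6 months). A Tia1 probe set away from exon 4 rose in KO liver at both ages (1.25, adjusted p = 0.000153, and 1.32, adjusted p = 0.000173). It rose in KO nervous tissues too (0.44 to 0.70, highest adjusted p = 0.00922). Not every other Tia1 probe set passed the test in liver. Arrays of 1 group correlated at 0.985 or more and none was left out. Since these are bulk tissues, fewer cells of a type and less RNA per cell cannot be told apart.

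In WT mice the enzymes were highest in liver and, among the nervous tissues, highest in spinal cord and lowest in cerebellum. Liver was above the mean of the 3 nervous tissues for 25 of 30 genes, when 47.4% of all probe sets were called in that direction, and below it for 4, against 35.4% (limma over all 48 arrays). Of the 17 enzymes, 15 had their highest mean in liver, as did 49.5% of all probe sets, and for 14 the lowest of 6 WT livers lay above the highest of the WT nervous tissue samples, as for 18.9% of all probe sets. Spinal cord was above cerebellum for 21 genes (26.5% of all probe sets) and below it for 3 (25.9%), and above midbrain for 22 (14.6%) and below it for 1 (15.5%). Cerebellum was below midbrain for 19 genes (24.6%) and above it for 3 (22.6%). The order spinal cord, midbrain, cerebellum held for the means of 15 of 17 enzymes (21.6% of all probe sets), and for 14 of them both steps passed the test (6.04%). In WT mice of both ages, Sqle, which oxidises squalene, averaged 10.46 ± 0.17 in liver, 9.84 ± 0.18 in spinal cord, 9.22 ± 0.07 in midbrain and 7.85 ± 0.10 in cerebellum (SD, n = 6). The samples of neighbouring tissues in that order did not overlap.

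The genes of disposal and export followed their known sites. Cyp7a1, which starts bile acid synthesis, averaged 10.40 ± 0.39 in WT liver and 2.51 to 2.58 in the nervous tissues, and the sterol exporter subunits Abcg5 and Abcg8 averaged 9.54 ± 0.31 and 7.50 ± 0.40 in liver (SD, n = 6) and no more than 2.64 and 2.85 elsewhere. Cyp46a1, which makes 24-hydroxycholesterol in neurons, ran the other way, with 8.99 ± 0.19 in midbrain, 7.72 ± 0.09 in spinal cord, 7.20 ± 0.06 in cerebellum and 4.78 ± 0.85 in liver (SD, n = 6). Its samples from the 4 tissues did not overlap. Abcg1, an exporter to lipoprotein particles, and Ggps1, the enzyme of the branch to geranylgeranyl groups, were also lower in liver (log2 difference −1.87 and −2.28). The LXR receptor gene Nr1h3, which drives sterol export, was higher in liver by 4.14. Hmgcs1 was lower in liver (−0.27), but its 1 probe set is dim, with a mean of 4.38 over all arrays. Srebf2 was the 1 gene not called between liver and the nervous mean (log2 difference 0.08). The sterol sensors Insig2 and Scap differed in no pair of nervous tissues at the threshold. The labelled tissue held its markers, with the summed signal of 6 hepatocyte markers at 15.16 to 15.31 (log2 of the sum) in every liver. This list was not particular to liver, since its sum ran from 7.02 to 13.00 in cerebellum. It reached 12.60 in KO midbrain at 3 months and was at most 6.84 in spinal cord.

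**Figure D1:**
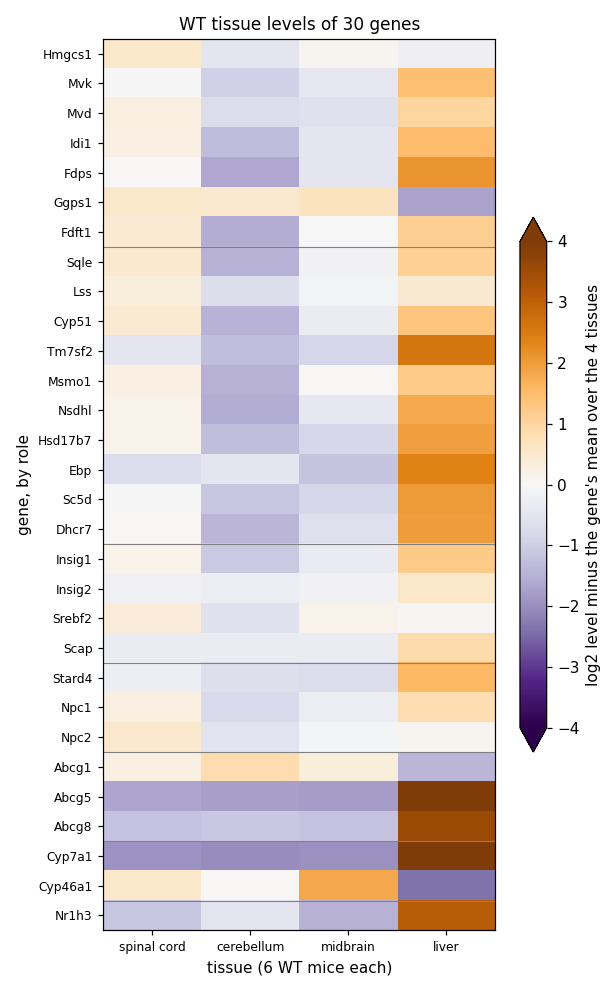
WT tissue levels of the 30 genes. Each row is a gene, ordered by role, and each column a tissue; colour gives the log2 level, averaged over 6 WT mice, minus the gene's mean over the 4 tissues, with the darkest colour for differences of 4 or more. Liver is the highest tissue for 24 of 30 genes, cerebellum lies below midbrain for most enzymes, and Cyp46a1, Abcg1 and Ggps1 run the other way.

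In liver at 6 months, 10 of the 30 genes were lower in KO mice, when 0.355% of all probe sets were called lower, and 1 was higher, against 0.251%. The 10 were 9 enzymes, spread over the whole pathway, and the sensor Insig1. They fell by between 0.73 for Idi1 and 1.63 for Mvd on the log2 scale, which is 1.66-fold and 3.10-fold. All 17 enzymes had a change below 0, with a median of −0.73, while the median over all probe sets was 0 and 50% of them lay below 0. Within groups the enzymes moved together in liver (median correlation 0.497 over 136 pairs), so they are not separate observations. The KO and WT livers did not overlap for 18 genes with KO lower (9.14% of all probe sets), of which 14 were enzymes, and for 1 gene with KO higher (9.07%). The plot of changes by comparison shows the column of liver at 6 months apart from the other 7.

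**Figure D2:**
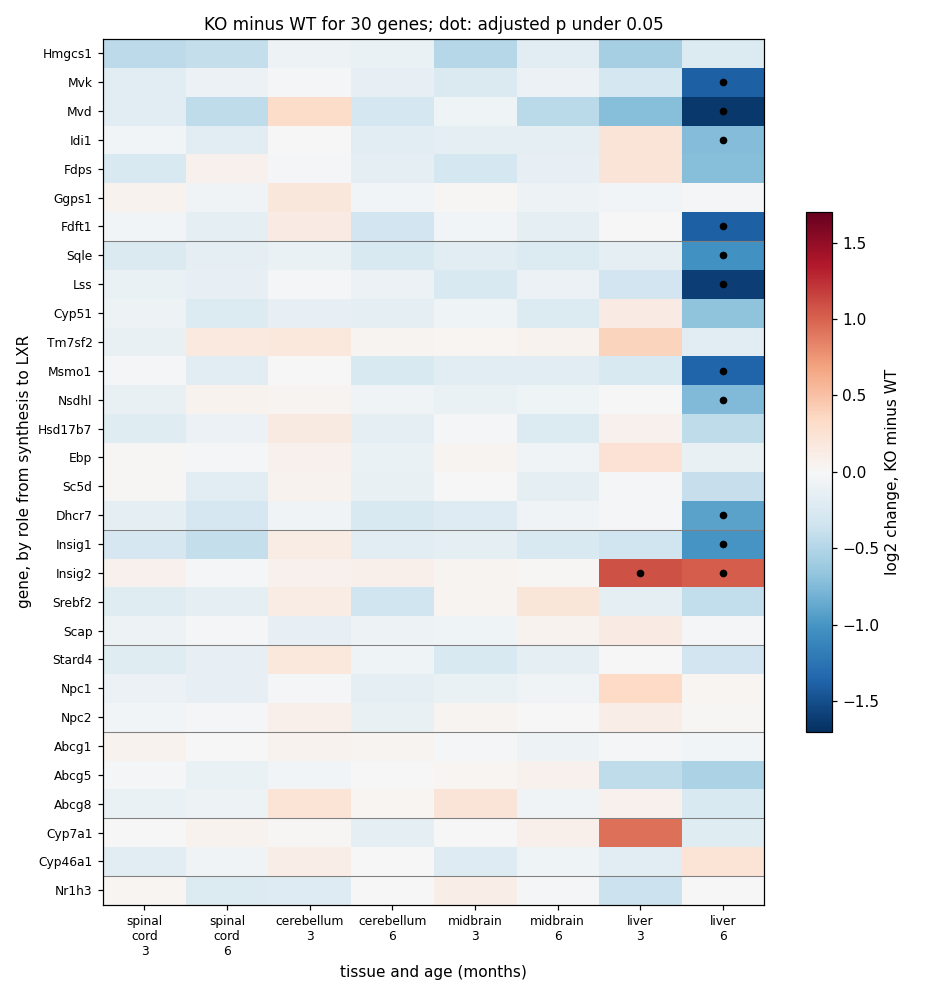
KO minus WT for the 30 genes in the 8 comparisons. Rows are genes ordered by role, columns are tissue and age in months, colour is the log2 change and a dot marks an adjusted p under 0.05 by limma. At 6 months in liver 10 genes are marked lower and Insig2 higher, Insig2 is the 1 mark in liver at 3 months, and the nervous tissues have none.

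Of the 7 enzymes measured before and at squalene formation, 4 fell. Mvd, which decarboxylates mevalonate diphosphate, read 5.35, 5.66 and 5.82 in KO liver at 6 months and 7.13, 7.37 and 7.24 in WT liver (log2 change −1.63, SE 0.26, adjusted p = 0.0199 by limma). Mvk, mevalonate kinase, read 6.90, 6.19 and 6.04 in KO and 7.74, 7.78 and 7.76 in WT liver (−1.38, SE 0.27, adjusted p = 0.0451). Every KO liver lay below every WT liver for both genes, although for Mvk the KO livers spread more widely than the WT livers. The Mvd probe set can match more than 1 transcript, and the second probe set of each gene fell as well (−1.92, adjusted p = 0.0247 for Mvd, and −1.33, adjusted p = 0.0187 for Mvk). Idi1, which interconverts the 2 isoprenoid units, read 10.63, 10.26 and 10.15 in KO and 11.12, 11.14 and 10.99 in WT liver (−0.73, SE 0.13, adjusted p = 0.0363), while its second probe set did not pass (−0.59, adjusted p = 0.121). Fdft1, the squalene synthase that commits carbon to sterols, read 8.97, 8.94 and 8.81 in KO and 10.12, 10.52 and 10.25 in WT liver (−1.39, SE 0.13, adjusted p = 0.000798). The gap between the highest KO and the lowest WT liver was wider for Fdft1 than the range of either group. Fdps, which makes farnesyl diphosphate, did not pass the test although its groups did not overlap (10.93, 10.43 and 10.40 in KO and 11.07, 11.48 and 11.38 in WT, −0.72, adjusted p = 0.0807). Hmgcs1, at −0.23, and Ggps1, at −0.03, did not pass either, and the 1 Hmgcs1 probe set is dim, with a mean of 4.38 over all arrays.

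Of the 10 enzymes after squalene, 5 fell. Lss, lanosterol synthase, which closes the rings, read 6.62, 6.47 and 6.05 in KO liver at 6 months and 7.88, 8.08 and 7.98 in WT liver (log2 change −1.60, SE 0.18, adjusted p = 0.00321 by limma). Msmo1, which removes the methyl groups at carbon 4, read 10.40, 10.12 and 10.15 in KO and 11.43, 11.74 and 11.57 in WT liver (−1.36, SE 0.12, adjusted p = 0.000688). For both genes the lowest WT liver stood more than 1 log2 unit above the highest KO liver. Sqle read 9.78, 9.38 and 9.38 in KO and 10.49, 10.59 and 10.54 in WT liver (−1.03, SE 0.15, adjusted p = 0.0132). Nsdhl, which works with Msmo1, read 9.96, 9.66 and 9.61 in KO and 10.49, 10.47 and 10.52 in WT liver (−0.75, SE 0.12, adjusted p = 0.0194). Dhcr7, which takes the last step to cholesterol, read 8.79, 8.43 and 8.29 in KO and 9.39, 9.39 and 9.44 in WT liver (−0.91, SE 0.15, adjusted p = 0.0252). None of these groups overlapped, and for all 5 genes KO mouse 122970 was the highest of the KO livers. Cyp51, the lanosterol demethylase, missed the threshold with its brightest probe set (−0.68, adjusted p = 0.0591), while its other 2 probe sets fell (−1.19, adjusted p = 0.0104, and −1.16, adjusted p = 0.0401). The remaining 4, Hsd17b7, Sc5d, Tm7sf2 and Ebp, had changes of −0.44 to −0.12, which did not pass.

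The 4 sterol-sensing genes went different ways in liver. Insig1, itself a target of SREBP2, read 9.51, 9.53 and 9.17 in KO liver at 6 months and 10.30, 10.37 and 10.53 in WT liver (log2 change −0.998, SE 0.16, adjusted p = 0.0201 by limma). Insig2, its sister gene, whose liver transcript is known to be lowered by insulin, read 11.30, 11.10 and 10.99 in KO and 9.99, 10.09 and 10.21 in WT liver (1.03, SE 0.14, adjusted p = 0.0106). Insig2 was higher in KO liver at 3 months too, with 11.16, 10.84 and 11.26 against 10.19, 9.87 and 9.95 (1.09, SE 0.14, adjusted p = 0.0094). The KO and WT livers did not overlap at either age for Insig2, whereas for Insig1 at 3 months KO livers read 9.76, 9.48 and 9.73 and overlapped the WT livers at 9.69, 10.24 and 10.07. The 3 probe sets of Insig2 all rose at both ages, by 1.03 to 1.16, with adjusted p of 0.00358 to 0.0171. Srebf2 itself, at −0.41 (adjusted p = 0.192), and Scap, at −0.03, did not pass the test at 6 months.

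The promoters of 5 of the genes that fell are shown because they were lowered together in KO liver at 6 months. They are those with the largest changes among the genes with an entry, since Fdft1 and Sqle, which ranked above Insig1, had none. RefSeq windows (build GRCm38.p6) were given for 28 of the 36 genes and for 8 of the 10 that fell, and the 250 bases before the start were searched on both strands for CCAAT, the letters bound by NF-Y, and GGGCGG, bound by Sp1, factors known to act beside SREBP2. The windows of Mvd (chr8:122443423-122443672, minus strand), Lss (chr10:76531355-76531604, plus strand), Mvk (chr5:114444019-114444268, plus strand), Msmo1 (chr8:64733579-64733828, minus strand) and Insig1 (chr5:28071162-28071411, plus strand) read 5′ to 3′ towards the start, with these letters and their reverse complements ATTGG and CCGCCC in capitals:
Mvd: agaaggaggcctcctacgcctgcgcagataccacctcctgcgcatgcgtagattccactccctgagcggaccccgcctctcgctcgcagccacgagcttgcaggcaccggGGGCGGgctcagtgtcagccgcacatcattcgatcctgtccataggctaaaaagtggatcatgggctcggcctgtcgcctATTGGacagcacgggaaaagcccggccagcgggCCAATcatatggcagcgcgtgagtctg
Lss: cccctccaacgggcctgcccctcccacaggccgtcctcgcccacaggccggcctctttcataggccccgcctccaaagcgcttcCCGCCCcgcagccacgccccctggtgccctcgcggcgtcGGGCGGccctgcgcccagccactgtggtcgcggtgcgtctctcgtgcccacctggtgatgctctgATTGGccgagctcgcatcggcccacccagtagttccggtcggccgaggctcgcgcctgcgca
Mvk: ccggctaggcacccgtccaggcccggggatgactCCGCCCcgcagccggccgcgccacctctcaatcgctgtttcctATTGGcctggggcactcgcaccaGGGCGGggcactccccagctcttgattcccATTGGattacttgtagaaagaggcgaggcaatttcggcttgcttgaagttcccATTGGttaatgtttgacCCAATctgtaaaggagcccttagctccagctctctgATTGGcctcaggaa
Msmo1: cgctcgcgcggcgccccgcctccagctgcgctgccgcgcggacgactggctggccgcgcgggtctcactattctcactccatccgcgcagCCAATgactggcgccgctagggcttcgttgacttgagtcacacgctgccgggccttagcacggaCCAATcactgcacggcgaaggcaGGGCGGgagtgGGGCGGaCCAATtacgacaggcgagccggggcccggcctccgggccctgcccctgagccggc
Insig1: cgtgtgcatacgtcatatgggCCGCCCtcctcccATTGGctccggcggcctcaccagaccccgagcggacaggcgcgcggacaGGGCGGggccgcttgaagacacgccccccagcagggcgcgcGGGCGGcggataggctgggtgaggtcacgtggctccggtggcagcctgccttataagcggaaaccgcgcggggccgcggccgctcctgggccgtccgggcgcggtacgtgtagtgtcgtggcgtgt

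All 8 fallen genes with an entry held CCAAT and all 8 held GGGCGG on one strand or the other. Mvk held CCAAT 5 times and Msmo1 3 times, and Lss and Insig1 once. Of the 16 enzymes with an entry, 15 held CCAAT and 14 held GGGCGG, while 37.5% of 27025 genes with an entry held the first and 35.4% the second, and 39.5% and 45.8% of the protein-coding genes. CACGTG, the E-box read by clock and sterol factors alike, was in 6 of the 28 genes (6.86% of all genes), Insig1 among them. The core of the sterol regulatory element was searched as TCACNCCAC and as CACCCCAC, which overlap where N is C. The first was in 1 of the 28 genes (1.22% of all genes), Hmgcs1, 137 bases before its start, and the second in Hmgcs1 and Acat2 (2.98%). It is shown in capitals in its Hmgcs1 window (chr13:119690194-119690242, plus strand):
Hmgcs1: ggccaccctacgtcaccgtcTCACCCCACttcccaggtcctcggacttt

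A match is a run of letters and no measured site, and a missing match says only that these letters are not in these 250 bases. Insig2, which rose, had 3 listed starts, and held CCAAT 3 times ahead of 1 of them and GGGCGG once ahead of each of the other two.

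The genes of transport, export and disposal held no call in liver at either age. At 6 months the changes were −0.33 for Stard4, 0.04 for Npc1 and 0.02 for Npc2, which move sterol within cells. They were −0.54 for Abcg5 (adjusted p = 0.164), −0.26 for Abcg8 and −0.04 for Abcg1 among the exporters. Cyp7a1 changed by −0.21, Cyp46a1 by 0.23 and Nr1h3 by −0.01. Although not called, Abcg5 and Stard4 were lower in KO liver without overlap at 6 months. The highest KO liver read 9.49 for Abcg5 and 10.14 for Stard4, and the lowest WT liver 9.69 and 10.27. The groups overlapped for the other genes of transport, export and disposal and for Nr1h3 at that age. At 3 months Abcg5 was again lower, and Npc1 higher, in KO liver without overlap. At 3 months Cyp7a1 read 10.95, 10.85 and 11.46 in KO and 10.45, 10.15 and 9.86 in WT liver. These groups did not overlap, but the change of 0.93 did not pass (SE 0.22, adjusted p = 0.129 by limma), and at 6 months KO livers read 10.37, 10.21 and 10.75 and WT livers 10.80, 10.87 and 10.29, which overlapped.

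**Figure D3:**
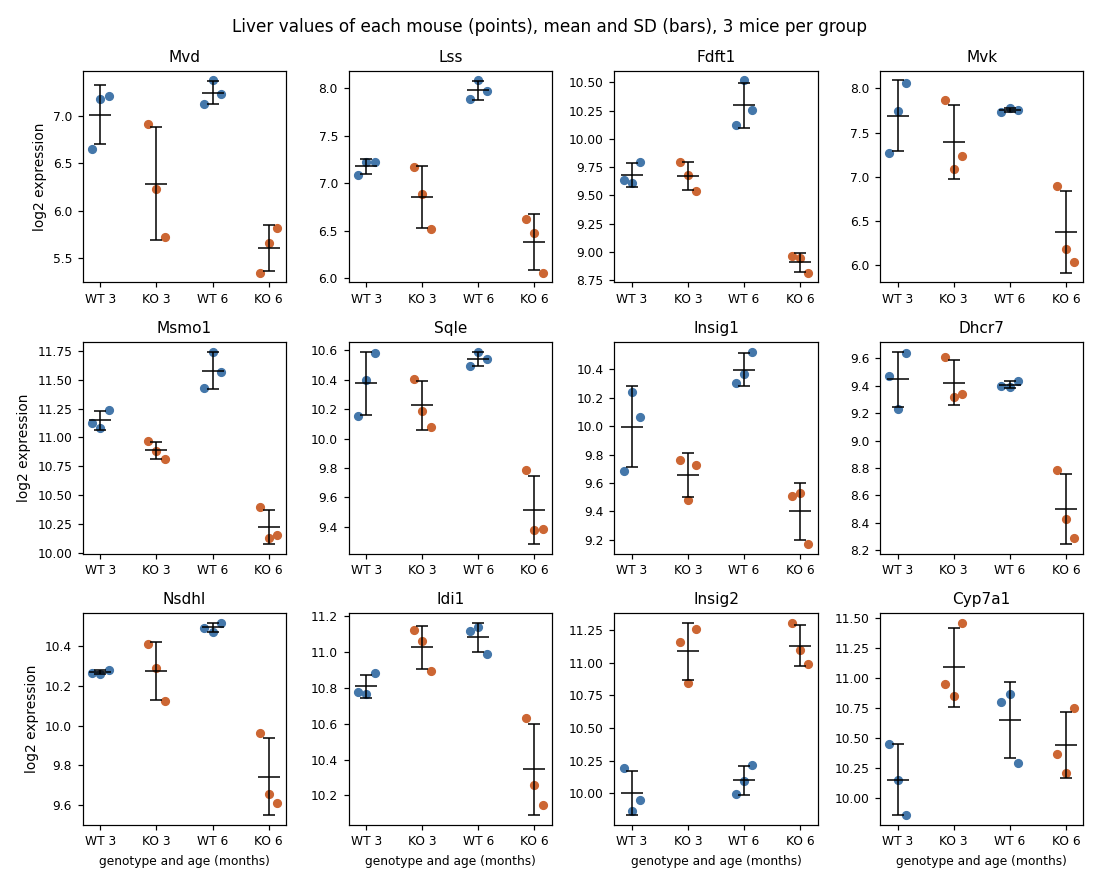
Liver levels in each mouse of the 11 genes called at 6 months and of Cyp7a1. Points are mice, the bar is the mean and the whiskers the SD of 3 mice; the vertical axis is log2 expression on a scale of its own for each gene, and groups are genotype and age in months. KO livers at 6 months lie below WT livers for the first 10 genes, KO livers lie above WT livers at both ages for Insig2, and Cyp7a1 separates at 3 months only.

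At 3 months no synthesis enzyme passed the test in liver. Over the whole list no gene was called lower (0.124% of all probe sets) and Insig2 alone was called higher (0.251%). At an unadjusted p under 0.05, 4 genes were lower and 5 higher, when 4.93% of all probe sets were lower and 5.58% higher at that level. The median change of the 17 enzymes was −0.02, with 10 below 0 and 7 above. The groups did not overlap for 3 genes with KO lower (7.4% of all probe sets) and for 6 with KO higher (8.36%). The 3 were Msmo1, Abcg5 and the dim Hmgcs1, and the 6 were Insig2, Cyp7a1, Npc1, Tm7sf2, Idi1 and Fdps. Mvd had the lowest change (−0.73, adjusted p = 0.341), with 6.91, 6.23 and 5.72 in KO and 6.65, 7.18 and 7.21 in WT liver, which overlapped. Fdft1 read 9.79, 9.68 and 9.54 in KO and 9.63, 9.61 and 9.80 in WT liver, a change of −0.01.

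The difference between the ages was tested itself. The KO effect at 6 months minus that at 3 months was called for Fdft1 alone (log2 difference −1.38, SE 0.18, adjusted p = 0.0257 by limma), when 0.0333% of all probe sets were called in either direction, and this call was lost without 10 of the 12 mice. At an unadjusted p under 0.05, 15 of the 17 enzymes were below 0, against 4.88% of all probe sets, and the median over the enzymes was −0.88 while that over all probe sets was −0.002. Since the enzymes moved together within groups, they do not count as 17 separate observations. Msmo1, at −1.10, missed the threshold (adjusted p = 0.0781), and Insig2, at −0.05, showed no call (adjusted p = 0.969). Within a genotype no gene of the list was called between the ages, in WT (0.42% of all probe sets) or in KO liver (0.0466%). At an unadjusted p under 0.05, 10 genes were higher and none lower at 6 months in WT liver, and 2 were higher and 15 lower in KO liver (11.4% of all probe sets in either direction in both). The median enzyme change from 3 to 6 months was 0.23 in WT and −0.55 in KO liver. Fdft1 moved by 0.62 in WT (adjusted p = 0.0707) and by −0.76 in KO liver (adjusted p = 0.0751). Lss moved by 0.80 (adjusted p = 0.0965) and −0.47 (adjusted p = 0.347), and Mvk by 0.07 and −1.02 (adjusted p = 0.191). These comparisons share their arrays with the KO comparisons and are no separate evidence.

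The enzymes were also averaged by mouse. Taking for each enzyme the value minus its mean over the 12 livers and averaging over the 17 enzymes, KO livers at 6 months stood at −0.31, −0.53 and −0.56 and WT livers at 0.25, 0.40 and 0.33. At 3 months KO livers stood at 0.21, 0.001 and −0.11 and WT livers at 0.003, 0.14 and 0.17. KO mouse 122970 had the highest value of its group for 13 of 17 enzymes at 6 months, and the mouse of that number for 15 of 17 at 3 months. Among WT livers the highest mouse was number 2 for 11 of 17 enzymes at 6 months and number 3 for 13 of 17 at 3 months. In the nervous tissues the same mean was lower in every KO than in every WT mouse in 5 of the 6 comparisons, the exception being cerebellum at 3 months, but the distances were small. At 6 months in cerebellum KO mice stood at −0.076, −0.072 and −0.064 and WT mice at 0.082, 0.088 and 0.095.

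**Figure D4:**
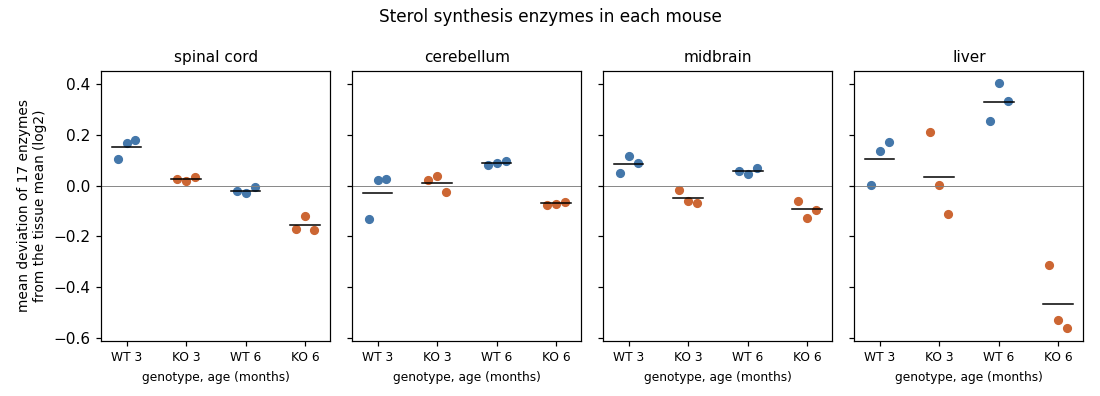
Mean of the 17 synthesis enzymes in each mouse. The vertical axis is the mean over the enzymes of the log2 value minus the enzyme's mean over the 12 arrays of the tissue; points are mice, the line is the group mean, and groups are genotype and age in months. KO livers at 6 months lie between −0.56 and −0.31 and WT livers between 0.25 and 0.40, while the groups of the nervous tissues lie between −0.18 and 0.18.

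Other genes moved with these groups in liver. Fasn, fatty acid synthase, read 9.75, 10.33 and 10.09 in KO and 11.09, 11.34 and 10.96 in WT liver at 6 months (log2 change −1.07, adjusted p = 0.0224 by limma), and Angptl4, made in liver and fat and known to rise with fasting, rose at 3 months (1.13, adjusted p = 0.0186) but had a change of 0.43 at 6 months (adjusted p = 0.357). At 3 months Angptl4 read 10.27, 10.39 and 10.30 in KO and 8.81, 9.19 and 9.57 in WT liver. The fat marker Adipoq, the 1 measured of 4, read 3.28, 7.01 and 6.28 in KO and 3.08, 3.11 and 3.91 in WT liver at 3 months, and the summed signal of 4 muscle markers (log2 of the sum) reached 10.72 in KO and 8.31 in WT liver. KO mouse 122970, with Adipoq at 3.28, was the one with Angptl4 at 10.27. Fasn and Angptl4 were 2 of the 4 measured genes of 8 on a list of feeding state, beside Pck1 and G6pc, whose changes are not given here. The summed signal of the 4 (log2 of the sum) was 12.201 to 12.253 in KO and 12.325 to 12.552 in WT liver at 6 months. Fasn and Angptl4 had changes of opposite sign there, so the sum cannot tell which way feeding state differed, if at all. At 3 months it was 12.077 to 12.187 and 11.657 to 12.135, which overlapped. Of 10 measured circadian clock genes of 11, Per3 fell at 3 months (−0.91, adjusted p = 0.0275) and none was called at 6 months, where Per3 changed by −0.74 (adjusted p = 0.0531). The summed clock signal (log2 of the sum) lay at 11.65 to 11.75 in KO and 11.85 to 11.95 in WT liver at 3 months, and at 11.69 to 11.73 and 11.88 to 11.96 at 6 months, without overlap at either age. None of 6 Kupffer cell markers was called, but their summed signal was 11.03 to 11.52 in KO and 10.72 to 10.98 in WT liver at 6 months, and 10.86 to 11.09 and 11.09 to 11.33 at 3 months. The part of these genes and markers in the enzyme result was not tested.

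Neighbouring parts of sterol metabolism showed few calls in liver. Of 8 measured genes on a list of other SREBP pathway components, none was called at either age. They were the SREBP proteases Mbtps1 and Mbtps2, the degradation genes Syvn1, Erlin1, Erlin2 and Rnf139, the sterol-regulated Tmem97, and the retinol dehydrogenase gene Rdh11, which had the largest changes, with 0.61 (adjusted p = 0.218) at 3 months and −0.66 (adjusted p = 0.143) at 6 months. Of 13 genes of bile acid synthesis and its control, Cyp39a1, an oxysterol hydroxylase, rose at 3 months (1.12, adjusted p = 0.0137) and Akr1d1, a bile acid reductase, fell at 6 months (−0.73, adjusted p = 0.0208). Nr0b2, the repressor of Cyp7a1, had a change of −1.54 at 3 months and −1.27 at 6 months, which did not pass (adjusted p = 0.202 and 0.259). Of 5 other LXR targets, Pltp, the phospholipid transfer protein of plasma, rose at 3 months (1.64, adjusted p = 0.00039) and none was called at 6 months. None of 11 genes of lipoprotein uptake and sterol transport and none of 7 genes of the branches of the mevalonate pathway was called at either age. The largest changes at 6 months were −0.37 for Vldlr and −0.23 for Pdss2, which did not pass the test.

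In the nervous tissues no gene of the list was called in any of the 6 KO comparisons, and the changes were small. The share of all probe sets called in either direction was 0.318% and 0.127% in spinal cord, 0.375% and 0.155% in cerebellum, and 0.611% and 0.229% in midbrain, at 3 and 6 months. At an unadjusted p under 0.05, 7 and 9 genes were lower in spinal cord (5.4% and 3.61% of all probe sets), 0 and 6 in cerebellum (3.77% and 3.89%), and 10 and 10 in midbrain (9.01% and 5.37%). At that level 2 genes were higher in cerebellum at 3 months (6.35% of all probe sets) and 1 in midbrain at 6 months (5.68%). Changes below 0 were found for 24 and 26 of 30 genes in spinal cord, 12 and 25 in cerebellum, and 21 and 24 in midbrain, where 52%, 49.2%, 44.8%, 50%, 53% and 48.3% of all probe sets lay below 0. The median change of the 30 genes ran from −0.13 in cerebellum at 6 months to 0.05 in cerebellum at 3 months. The groups did not overlap with KO lower for 9 and 11 genes in spinal cord (9.22% and 5.42% of all probe sets), 3 and 10 in cerebellum (5.66% and 6.89%), and 10 and 12 in midbrain (13% and 6.99%). The tissues of 1 age come from the same mice, so they are not separate evidence.

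Sqle lay lower in KO mice without overlap in 5 of the 6 comparisons, with changes of −0.26 to −0.11 that did not pass the test (lowest adjusted p = 0.183). Fdps, Insig1 and Msmo1 did so in 4 of 6. These 4 were the genes of the 30 with the most such comparisons, and 0.622% of all probe sets lay lower without overlap in 4 or more. In spinal cord, the dim Hmgcs1 had the largest change at 3 months (−0.45, adjusted p = 0.368 by limma), with 4.76, 4.60 and 4.55 in KO and 4.64, 5.26 and 5.37 in WT mice, which overlapped. At 6 months it had −0.40 (adjusted p = 0.606). Insig1 read 8.72, 8.72 and 8.84 in KO and 9.08, 8.93 and 9.13 in WT spinal cord at 3 months (−0.28, adjusted p = 0.172). At 6 months it read 8.86, 8.77 and 8.85 in KO and 9.26, 9.27 and 9.15 in WT spinal cord (−0.40, adjusted p = 0.0809). The Insig1 groups were apart at both ages. Mvd read 5.71, 5.78 and 5.96 in KO and 6.30, 6.31 and 6.12 in WT spinal cord at 6 months, without overlap (−0.43, adjusted p = 0.143). Between the ages in WT spinal cord Fdps was called lower at 6 months, at 8.83, 8.84 and 8.83 against 9.21, 9.33 and 9.25 (−0.43, adjusted p = 0.0392), when 0.118% of all probe sets were called lower. In KO spinal cord Fdps moved by −0.10 (adjusted p = 0.898). That call was lost without any 1 of the 6 mice.

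In midbrain at 3 months the dim Hmgcs1 changed by −0.48 (adjusted p = 0.179 by limma), with 4.33, 4.01 and 4.02 in KO and 4.25, 4.78 and 4.80 in WT mice. Fdps changed by −0.29 (adjusted p = 0.0769), with 8.35, 8.31 and 8.32 against 8.48, 8.66 and 8.72. The groups overlapped for Hmgcs1 and not for Fdps. At 6 months Mvd read 5.22, 4.87 and 5.18 in KO and 5.70, 5.46 and 5.49 in WT midbrain (−0.46, adjusted p = 0.0986), and Insig1 8.49, 8.43 and 8.48 against 8.69, 8.71 and 8.78 (−0.26, adjusted p = 0.214), both without overlap. In cerebellum at 3 months the largest changes were positive, for Mvd with 5.38, 5.57 and 5.53 in KO and 4.89, 5.18 and 5.45 in WT mice (0.32, adjusted p = 0.423), and for the dim Abcg8 with 3.07, 2.98 and 2.95 against 2.72, 2.72 and 2.86 (0.23, adjusted p = 0.335). At 6 months they were negative, for Srebf2 with 5.48, 5.83 and 5.81 against 6.13, 5.97 and 6.02 (−0.34, adjusted p = 0.542) and for Fdft1 with 7.15, 7.06 and 7.15 against 7.41, 7.33 and 7.60 (−0.33, adjusted p = 0.36). The groups were apart for both at 6 months. The KO effect at 6 minus that at 3 months was called for no gene in the 3 nervous tissues (0.0133%, 0.0178% and 0.0222% of all probe sets in spinal cord, cerebellum and midbrain), with 3, 4 and 1 genes at an unadjusted p under 0.05 (7.5%, 6.81% and 11.8%). In cerebellum that difference was below 0 for all 17 enzymes, with a median of −0.18, where 54.4% of all probe sets lay below 0. Apart from Fdps, no gene was called between the ages in KO spinal cord (0.0311% of all probe sets), in WT and KO cerebellum (0.673% and 0.0289%) or in WT and KO midbrain (0.77% and 0.00444%), nor was any other in WT spinal cord. At an unadjusted p under 0.05, 9 genes moved in WT and 9 in KO spinal cord, 7 and 3 in cerebellum, and 4 and 8 in midbrain (12.3%, 6.51%, 13.9%, 8.31%, 16% and 8.76% of all probe sets).

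Markers of other kinds also differed between the genotypes in the nervous tissues. Dbp, an output factor of the circadian clock, fell in all 6 comparisons, by 0.48 in cerebellum at 6 months (adjusted p = 0.0201 by limma) to 0.85 in cerebellum at 3 months (adjusted p = 0.000119). Of 11 measured oligodendrocyte markers of 12, Opalin fell in cerebellum at 6 months (−0.73, adjusted p = 0.00673) and in midbrain at 3 months (−0.61, adjusted p = 0.024), and no other was called. The summed oligodendrocyte signal (log2 of the sum) lay at 13.74 to 13.78 in KO and 13.81 to 13.86 in WT midbrain at 6 months and overlapped in the other 5 comparisons. Angptl4 rose in 5 of the 6 comparisons, by 0.80 to 1.32, and had a change of 0.82 in cerebellum at 6 months (adjusted p = 0.0625). Other marker sums, on the same log2 scale, stood apart without overlap in some comparisons, and no single astrocyte, microglia, spinal cord position, neuron, Schwann cell or choroid plexus marker was called where they did. The 6 astrocyte markers summed to 12.60 to 12.64 in KO and 12.47 to 12.53 in WT spinal cord at 3 months, and to 12.16 to 12.22 and 12.00 to 12.10 in cerebellum at 6 months. The 6 microglia markers summed to 8.25 to 8.34 in KO and 8.44 to 8.48 in WT midbrain at 3 months, and to 8.53 to 8.67 and 8.72 to 8.88 in spinal cord at 6 months. The 3 measured spinal cord position markers summed to 9.46 to 9.55 in KO and 9.14 to 9.30 in WT spinal cord at 3 months. The 5 neuron markers summed to 13.89 to 13.92 in KO and 13.79 to 13.87 in WT midbrain at 3 months. The 2 measured Schwann cell markers of 4 summed higher in KO cerebellum at 3 months and lower in KO midbrain at 6 months, and the 4 choroid plexus markers summed higher in KO midbrain at 6 months. The sum of the 10 measured clock genes of 11, Dbp among them, was 11.80 to 11.81 in KO and 11.91 to 11.97 in WT midbrain at 3 months, and it was lower in KO without overlap in midbrain at 6 months and spinal cord at 3 months too. Their part in the enzyme levels was not tested.

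The difference between liver and the nervous tissues was tested within mice, as a comparison added after the data were seen. Each mouse's liver value minus the mean of its 3 nervous tissue values was compared between KO and WT mice by limma over the 12 mice. At 6 months 5 genes were lower in KO mice by this measure (0.315% of all probe sets): Lss (log2 difference −1.49, SE 0.17, adjusted p = 0.00439), Mvk (−1.27, SE 0.24, adjusted p = 0.0399), Fdft1 (−1.17, SE 0.13, adjusted p = 0.00439), Msmo1 (−1.15, SE 0.12, adjusted p = 0.00373) and Nsdhl (−0.73, SE 0.13, adjusted p = 0.0297). Insig2 was higher (1.01, SE 0.15, adjusted p = 0.0141), when 0.218% of all probe sets were. Mvd, Sqle, Insig1, Dhcr7 and Idi1, called in liver alone, did not pass here (−1.24 to −0.56, adjusted p = 0.0691 to 0.144). At 3 months Insig2 was called higher (1.03, adjusted p = 0.0171, 0.211% of all probe sets) and none lower (0.113%), with 2 genes lower at an unadjusted p under 0.05 (5.13%). The difference between the ages was called for none of the 30 genes (0.0266% of all probe sets in either direction), with 13 lower at an unadjusted p under 0.05 (4.81%).

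Most calls in liver at 6 months were lost when 1 mouse was left out, which also leaves fewer mice in a group. The changes stayed below 0, at −1.74 to −1.50 for Mvd and −1.65 to −1.21 for Mvk. Without any 1 mouse Fdft1, Lss and Msmo1 kept their calls (highest adjusted p = 0.00617, 0.0222 and 0.00609 by limma), whereas the number of genes called lower ran from 3 to 11. It was 3 without WT mouse 1, WT mouse 2, KO mouse 122972 or KO mouse 122973, 4 without WT mouse 3, and 11 without KO mouse 122970. Mvk, Idi1, Nsdhl, Dhcr7 and Insig1 lost their calls without any mouse other than KO mouse 122970, and Sqle without WT mouse 1 or 2 or KO mouse 122972 or 122973. Mvd lost its call without any of the 6 mice (adjusted p = 0.056 to 0.0923). Insig2 lost its call at 6 months without WT mouse 1 or 2 (lowest adjusted p = 0.0552) and at 3 months without WT mouse 3 (adjusted p = 0.0545), with changes of 0.95 to 1.21 throughout. When all 48 arrays were fitted together, with 1 spread for all tissues, 17 genes were lower in liver at 6 months, when 5.81% of all probe sets were called lower.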

How the data were processed

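RNA from 48 tissue samples was hybridised to Affymetrix HT MG-430 PM arrays by the authors, who deposited log2 expression values made by robust multi-array averaging (RMA) in R 2.14.0, per the submitters' processing notes. RMA corrects background, sets all arrays to 1 distribution by quantile normalization and summarises the probes of a set, so it can hide a shift shared by most genes. Precision is set by how many arrays a group has, since arrays have no read depth.

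Probe sets were named from the platform annotation used here (28898 with 1 symbol, 551 with several, 15588 with none). The 104 control probe sets were left out of 45141. Array medians lay between 3.951 and 4.318. Replicate livers spread more (median SD 0.218) than nervous tissues (0.115 to 0.133), so each tissue was fitted alone with limma 3.58.1 in R 4.3.3, with a mean for each of its 4 groups. Tissues were compared in a fit over all arrays. An exact 2-sided permutation test of 3 against 3 cannot go below p = 0.1 and was not used. The fit of 1 tissue was tested on simulated liver arrays, and the other steps were not tested in this way.

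All measured genes are accounted for by role. Values by mouse are given for at most the 12 largest changes called in a KO comparison or age difference, and for the 2 largest where none was called. The members and all gene lists were chosen with earlier results of these data known. Motif searches covered the 250 bases before each RefSeq start (GRCm38.p6). Alternatives were a stricter threshold, a fold threshold, other priors, normalizations, filters and probe set rules, joint and separate fits, replicate blocks (statmod 1.5.0) and each mouse left out.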

Additional observations from a re-analysis of the deposited data

Results flagged for a closer look

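The results below are those whose difference between tissues or ages was itself tested and called. Within mice, the KO minus WT difference was farther from 0 in liver than in the nervous tissues of the same animals at 6 months for Lss (log2 difference −1.49), Mvk (−1.27), Fdft1 (−1.17), Msmo1 (−1.15) and Nsdhl (−0.73), all lower in KO liver, and for Insig2 (1.01), which was higher. At 3 months the same measure was called for Insig2 alone (1.03). Fdft1, Lss and Msmo1 kept these calls without any 1 of the 6 mice, whereas Mvk and Nsdhl lost theirs without 5 of the 6 and Insig2 without 4 of the 6 at each age. Between the ages, the KO effect on liver Fdft1 differed by −1.38, a call that was lost without 10 of the 12 mice (highest adjusted p = 0.0945 by limma). The cause of these differences was not tested. No group held the 4 samples that a check for single outlying arrays needs.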

How the results depend on the processing

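Signs were followed for genes called in a KO or age comparison, and for the 2 largest changes of a KO comparison without a call. None of these changed sign under the alternatives run, and the signs of the other genes were not followed. Of the counts of genes called, 370 values under an alternative lay within 1.5 times the reported count and 81 did not. The 370 include counts of 0 that stayed at 0, so they do not measure how stable the other counts were. Of the values for single genes, 365 kept their side of the threshold, 96 lost the call and 6 gained one. The 365 include genes that were not called to begin with. Among the alternatives, the share of all probe sets called was computed only for the fit of all 48 arrays together. For the other alternatives, whether the genes of the list moved more than the rest cannot be told. Under the trended and robust prior, counts of calls rose to 1 in spinal cord KO against WT at both ages, 4 and 2 between the ages in WT and KO spinal cord, 3 and 4 in midbrain KO against WT at 3 and 6 months, 1 between the ages in WT midbrain, 2 higher in liver at 3 months, 9 for the difference of the liver KO effect between the ages, and 4 and 9 between the ages in WT and KO liver. With dim probe sets left out, the counts were 1 in spinal cord KO against WT at 6 months, 2 between the ages in WT spinal cord, 2 in midbrain at 3 months, 1 between the ages in WT midbrain, 2 for the age difference of the liver KO effect, 1 and 4 between the ages in WT and KO liver, and 9 lower within mice at 6 months. At an adjusted p under 0.01, 3 genes remained lower in liver at 6 months and 3 within mice, while the calls higher at 6 months in liver, higher within mice at both ages, for the age difference in liver and between the ages in WT spinal cord came to 0. With each age fitted alone, 4 genes were lower in liver at 6 months and 0 higher at 3 months. With the mean of a gene's probe sets, 1 gene was called in midbrain at 3 months, and 3 and 2 genes were lower in WT and KO spinal cord than midbrain. With array medians subtracted, 3 genes were lower in KO liver than the nervous tissues. With all 48 arrays fitted together, liver held 4 higher and 3 lower at 3 months (4.92% and 4.53% of all probe sets), 17 lower at 6 months (5.81%), 16 for the age difference (7.14%), and 11 and 17 between the ages in WT and KO (10.7% and 10.9%).

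Leaving out 1 mouse at a time gave 0 calls between the ages in WT spinal cord, 0 to 1 in midbrain at 3 months, 0 to 1 higher in liver at each age, 3 to 11 lower in liver at 6 months, 0 to 2 for the age difference and between the ages in KO liver, 0 to 1 higher within mice at each age, and 3 to 6 lower at 6 months. The tissues of a mouse are paired by the labels. With the mouse as a replicate block, all 48 arrays gave 4 higher and 3 lower genes in liver at 3 months and 17 lower at 6 months, as without the block, and the tissue counts did not move (consensus correlation 0.0303). Deviations from group means correlated at a median of 0.0511 for tissues of 1 mouse and −0.0219 for tissues of different mice of a group. Mouse numbers shared by the ages gave −0.0032, and as a replicate block they changed no count. Tissues of 1 mouse correlated little as well, so this value cannot show whether the numbers stand for separate mice.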
